A study of Mus musculus with 2 samples.

Results

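Immediate early and feedback genes are transcribed within minutes of a stimulus, and many of their products then shut the same signal off. The genes described here were chosen by name, as a listed set of early response genes other than the Fos and Jun subunits of AP-1, and all 31 were present in both libraries among the 19357 genes of either. They were measured by single-cell RNA sequencing of the whole aorta of male C57BL/6 mice. The diabetic group was Apoe -/- and was given streptozotocin, a toxin of pancreatic beta cells, at 55 mg/kg per day over 5 days from 6 weeks of age. The control group was also Apoe -/-, so both lacked apolipoprotein E and were prone to atherosclerosis, and it was given the citrate vehicle. Both groups were followed for 10 weeks and their age is given as 17 weeks. Cells of 4 mice were pooled into a single library per group, so no difference below has a replicate check and no p-value is given. A level is the sum of unique molecular identifiers (UMIs) of a gene over the cells of a class, scaled to 1000000 UMIs of that class (CPM). A ratio is diabetic over control, and the range in brackets after it is its exact 95% interval, which covers counting error only and not the spread between mice. A gene was called higher or lower when the ratio was at least 1.5-fold either way, the interval excluded 1 and the gene had at least 30 UMIs over both libraries of the class.

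Growth factors, cytokines, calcium and mechanical stress reach these genes through the mitogen-activated protein kinase ERK, the cAMP-responsive factor CREB, serum response factor, STAT factors and NF-kappaB, which are already present in resting cells and need no new protein. The products fall into factors that carry the response on to later genes (EGR1 to EGR3, the NR4A orphan nuclear receptors, MYC), and brakes that dephosphorylate the kinases (DUSP), block cytokine receptors (SOCS3), trap NF-kappaB in the cytoplasm (NFKBIA) or destroy short-lived mRNAs (ZFP36). In vascular tissue they respond to shear stress, injury and inflammatory cytokines, and they are also known to be induced when tissue is dissociated with enzymes at body temperature.

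The protocol held such a step for both groups, a digestion of 1 hour at 37 °C followed after pooling by an incubation of 30 minutes at 37 °C and a sort for live cells. The authors gave a class to 2524 diabetic cells (11833577 UMIs) and 3060 control cells (12390769 UMIs) in 13 classes, and 7 classes with at least 50 cells in each library were compared. These were ECs (228 diabetic and 366 control cells), the fibroblast classes Fib-1 (245 and 386), Fib-2 (533 and 907) and Fib-3 (67 and 117), the smooth muscle classes VSMCs-1 (159 and 134) and VSMCs-2 (856 and 496), and Mac (229 and 510). Of the marker lists other than erythroid genes, each class was highest for that of its own type, such as the summed endothelial list with 4682 CPM in diabetic and 5179 CPM in control ECs. The erythroid list exceeded the class's own in ECs of both libraries and in diabetic Fib-1, Fib-3 and VSMCs-1. Median UMIs per cell were 1240 to 6523 over these classes in the diabetic library and 1410 to 5882 in the control library. Apoe, the deleted gene, had 5.32 CPM in diabetic and 3.87 CPM in control cells. Haemoglobin UMIs made up 1.14% of all UMIs in annotated diabetic cells and 0.217% in control cells, and the median mitochondrial share was 3.83% and 2.87%. The libraries shared 15 barcode sequences, of which 8 were annotated in both.

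Response elements of the factors named above were searched in proximal promoters. Windows from 250 bases before to 50 bases after the transcription start, taken from RefSeq (GRCm38.p6), were found for 25 of the 31 genes. The cAMP response element core TGACG, the shorter form of that site, searched on both strands, stood in the windows of 14 of these 25 genes (56.0%), against 23.0% of all 26994 genes with a window. The full element TGACGTCA, which contains the core, stood in 4 of the 25, namely Btg2, Dusp1, Errfi1 and Ppp1r15a, against 2.03% of all genes. The serum response element (CArG box) stood in 3, which were Dusp5, Egr2 and Zfp36, against 1.81% of all genes. The STAT motif TTCNNNGAA was found in Csrnp1, Socs3 and Zfp36, against 9.55% of all genes, and the AP-1 motif TGANTCA in Csrnp1 and Zfp36l1, against 8.98%. An NF-kappaB motif was found in Egr2, Ier3, Nfkbia and Nr4a1, against 9.55%. Base composition was not matched, and a match describes letters in the window and not binding.

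Windows are printed for the genes called higher in the largest number of classes, 5′ to 3′ on the gene's strand, with motif matches in capitals. Ier2 and Trib1 also belong to these genes and are named only. In Nr4a3 (chr4:48045055-48045354, plus strand) the capitals mark 4 cores, whose first bases lie 231, 213, 205 and 147 bases before the start. In Btg1 (chr10:96616751-96617050, plus strand) they mark 2 cores, at 187 and 103 bases before the start. In Socs3 (chr11:117969317-117969616, minus strand) they mark a STAT motif at 154 bases before the start. That window lies wholly inside the span of Socs3 in the GRCm38 gene annotation (chr11:117966079-117970047), downstream of its 5′ end. The start used for Nr4a3 likewise lies inside the annotated span, which begins at chr4:48045153. The Ier5 window (chr1:155099587-155099886, minus strand) held none of the motifs searched.
Nr4a3: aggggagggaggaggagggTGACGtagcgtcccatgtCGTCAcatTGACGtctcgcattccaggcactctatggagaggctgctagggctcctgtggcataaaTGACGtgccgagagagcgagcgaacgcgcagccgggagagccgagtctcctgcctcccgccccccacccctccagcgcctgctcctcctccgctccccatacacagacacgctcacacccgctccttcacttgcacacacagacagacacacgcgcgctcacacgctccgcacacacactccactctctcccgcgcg
Btg1: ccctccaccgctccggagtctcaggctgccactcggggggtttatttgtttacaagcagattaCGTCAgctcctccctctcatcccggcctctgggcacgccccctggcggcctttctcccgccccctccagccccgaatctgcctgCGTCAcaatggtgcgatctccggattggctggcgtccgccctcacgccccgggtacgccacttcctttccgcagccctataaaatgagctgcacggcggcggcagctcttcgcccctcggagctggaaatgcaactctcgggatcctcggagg
Socs3: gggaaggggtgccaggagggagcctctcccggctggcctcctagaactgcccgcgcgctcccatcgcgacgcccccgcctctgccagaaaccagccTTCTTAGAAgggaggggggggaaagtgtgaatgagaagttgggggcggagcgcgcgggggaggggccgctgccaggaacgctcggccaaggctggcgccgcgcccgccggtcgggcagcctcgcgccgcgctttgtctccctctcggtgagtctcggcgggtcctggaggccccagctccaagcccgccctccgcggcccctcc
Ier5: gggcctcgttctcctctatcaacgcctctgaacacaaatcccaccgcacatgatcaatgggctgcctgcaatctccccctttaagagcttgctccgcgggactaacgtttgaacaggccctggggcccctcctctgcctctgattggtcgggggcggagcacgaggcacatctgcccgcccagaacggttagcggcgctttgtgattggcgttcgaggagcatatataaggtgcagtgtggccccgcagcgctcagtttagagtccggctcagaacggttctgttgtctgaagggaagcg

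Each cell class carried its own mixture of these genes, and 19 of the 31 had their highest level in the same class of the 7 in both libraries. Fib-1 led for Egr1, Ier5, Nr4a2, Zfp36 and Socs3, and ECs led for Ier2, Ier3, Dusp6 and Rhob. Macrophages (Mac) led for Egr2, Btg1, Dusp2, Dusp5, Nfkbiz and Trib1, VSMCs-2 for Btg2 and Gadd45g, and Fib-3 for Csrnp1 and Errfi1. Egr1, a zinc finger factor of injured vessels, had 1231 CPM in diabetic and 1227 CPM in control Fib-1, and its lowest levels of the 7 classes were 85.9 CPM in diabetic and 73.8 CPM in control Mac. Btg1, an antiproliferative adaptor of leukocytes, went the other way, with 439 CPM in diabetic and 284 CPM in control Mac against 119 and 118 CPM in the next class, VSMCs-2. Errfi1, which blocks the EGF receptor, had 339.9 CPM in diabetic and 277 CPM in control Fib-3, and its lowest levels, 32.8 and 16.5 CPM, were in ECs. The counting intervals of the first and the second class did not overlap for any of these in either library.

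**Figure D1:**
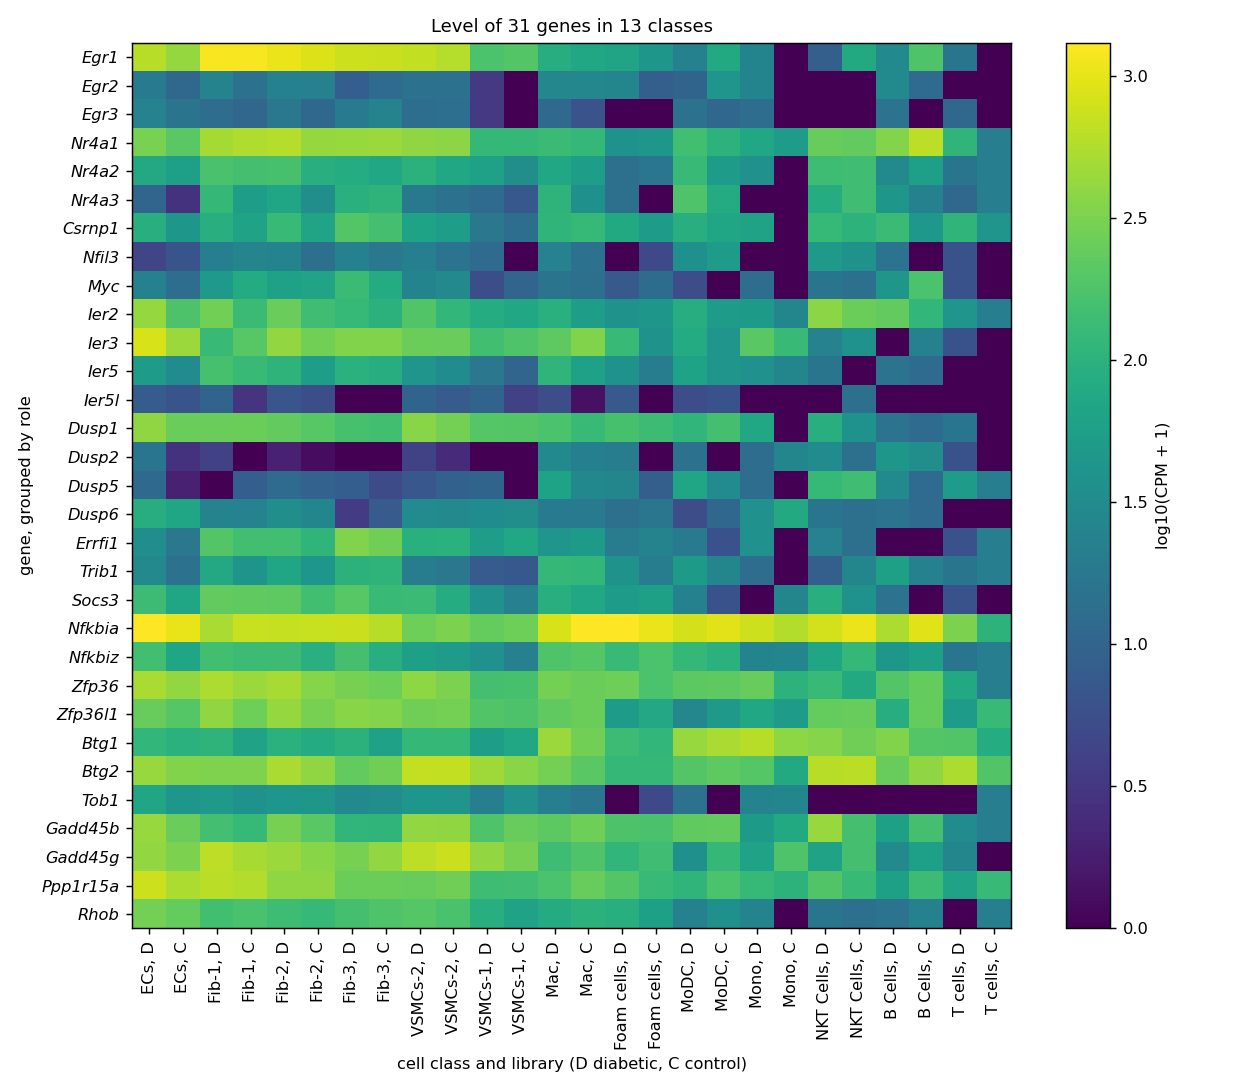
Level of the 31 genes as log10(CPM + 1), by colour, in the 13 classes (columns, diabetic library left of control in each pair), with genes in rows grouped by role. The Egr1 row is brightest in the fibroblast classes. The Btg1 row is brightest in Mono of the diabetic and in MoDC of the control library, while the T cell columns are dark in most rows.

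Several leading classes could not be told from the next by counting error. The intervals of Fib-1 and ECs overlapped for Zfp36 in both libraries (539 and 527 CPM in the diabetic, 451 and 406 CPM in the control library). The leading class changed between libraries for 12 genes. Nfkbia, the inhibitor of NF-kappaB, was one of them, with ECs in front in the diabetic library (1313 CPM, against 861 CPM in Mac) and Mac in front in the control library (1278 CPM, against 1047 CPM in ECs). ECs were the leading class for 10 of the 31 genes in the diabetic library and for 4 in the control library, and Fib-1 for 6 and 9. The smaller classes held some high levels on few UMIs. Dusp5, an ERK phosphatase, was highest of all 13 classes in NKT Cells, at 123 CPM (16 UMIs) in the diabetic and 143 CPM (11 UMIs) in the control library. Nr4a1 reached 648 CPM (57 UMIs) in control B Cells.

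Between the libraries these genes were most often higher in the diabetic library, and the size of the shift depended on the class. Of 217 pairs of gene and class, 177 met the minimum of 30 UMIs, and of these 34 were called higher, 2 lower and 141 neither. The interval lay above 1 in 69 of the 177 pairs and below 1 in 11, and it was not adjusted for the number of pairs. In ECs it lay above 1 for 20 and below 1 for 0 of 25 members (466 and 551 of all 6096 tested genes). In Fib-2 this was 19 and 0 of 29 (all genes 1034 and 933 of 9281). In Mac it was 8 and 5 of 29 (1034 and 755 of 7373), and in VSMCs-2 9 and 3 of 30 (1099 and 1191 of 9729). In Fib-1 it was 6 and 2 of 24 (207 and 296 of 3423), and in Fib-3 5 and 1 of 24 (299 and 431 of 4026). In VSMCs-1 it was 2 and 0 of 16 (184 and 216 of 3032). In ECs 11 of 25 tested members were called higher and none lower, where the same rule called 4.18% of all tested genes higher and 4.02% lower. In Fib-2 it was 7 of 29 higher and none lower (all genes 5.43% and 3.62%). In Fib-1 5 of 24 were higher and 1 lower (3.45% and 5.26%), and in Fib-3 4 of 24 were higher and none lower (4.15% and 6.58%). In Mac 5 of 29 were higher and 1 lower (8.79% and 5.66%). In VSMCs-2 2 of 30 were higher and none lower, a share near that of all genes (4.77% and 3.9%), and in VSMCs-1 none of 16 was called either way (3.23% and 4.82%).

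The median log2 ratio showed the same order of classes. It was 0.63 over the 25 members in ECs, where the median of all tested genes was -0.03. It was 0.48 in Fib-2 (all genes 0.03), 0.20 in Fib-1 (-0.08), 0.16 in Mac (0.06) and 0.10 in Fib-3 (-0.08). In the smooth muscle classes it was near 0, at 0.08 in VSMCs-2 (all genes 0.02) and -0.01 in VSMCs-1 (-0.02). In ECs every one of the 25 tested members had a ratio above 1, from 1.16 for Btg1 to 2.41 for Ier2, while 46.9% of all tested genes did. Trimmed mean scaling, which takes most genes as not differing, shifted all log2 ratios in Mac by -0.12, and those of the other classes by -0.03 to 0.03. Leaving mitochondrial, ribosomal protein and haemoglobin genes out of the scaling raised all log2 ratios of a class by 0.06 (VSMCs-2) to 0.11 (Fib-3). With that scaling 5.69% of all tested genes were called higher and 3.05% lower in ECs, and 7.13% higher and 2.64% lower in Fib-2. The shares were 5.64% higher and 3.39% lower in Fib-1, 6.61% and 4.32% in Fib-3, 12.3% and 3.39% in Mac, 6.28% and 3.1% in VSMCs-2, and 4.35% and 3.59% in VSMCs-1. Members called in at least 1 class numbered 18, and 13 were called in none.

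**Figure D2:**
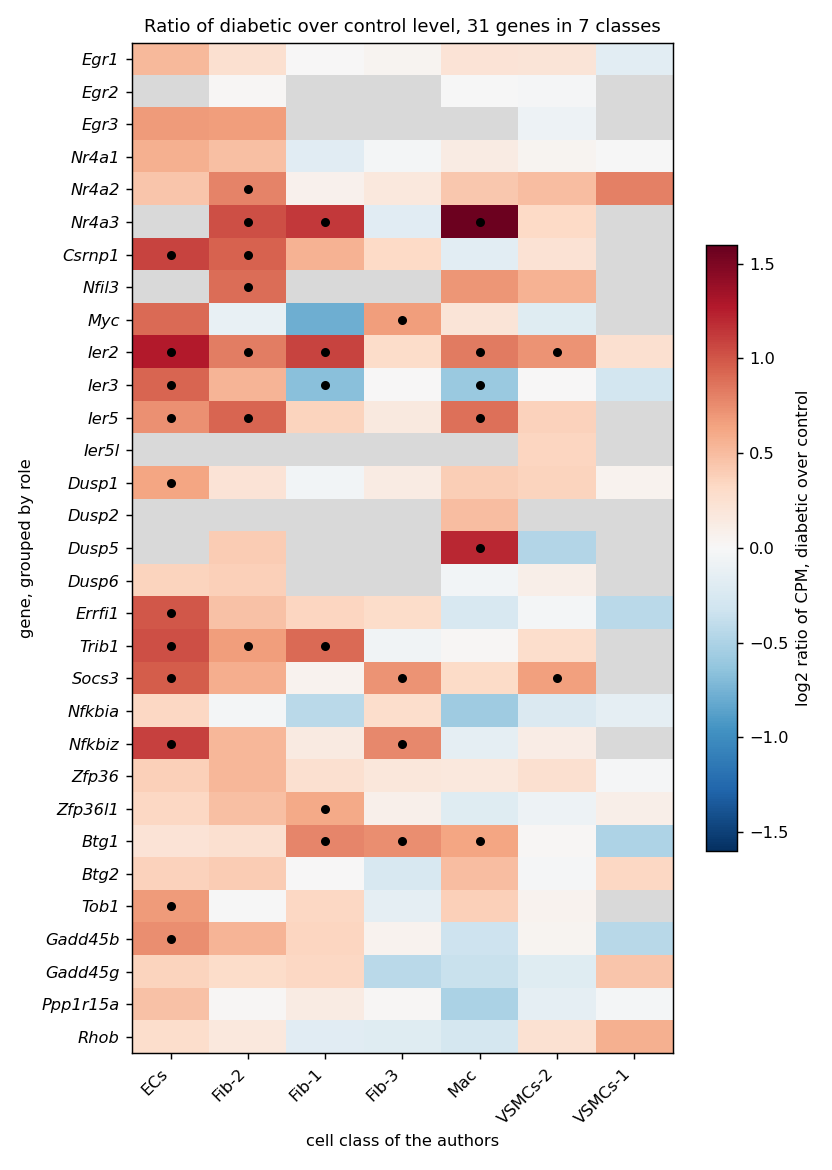
Log2 ratio of CPM, diabetic over control, by colour, for the 31 genes (rows, grouped by role) in the 7 classes (columns), with marks for called pairs and grey cells for pairs under 30 UMIs. The ECs column has ratios above 1 in all 25 tested rows, while Ier3 is below 1 in Mac and Fib-1.

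The Ier family held the member called in most classes. Ier2, a short nuclear protein induced by growth factors, was called higher in 5 of the 7 classes. It had 420.4 CPM (359 UMIs) in diabetic ECs, against 175 CPM (191 UMIs) in control ECs, a ratio of 2.41 (2.01 to 2.88). In Fib-1 it had 283 CPM (94 UMIs) in diabetic Fib-1, against 134 CPM (70 UMIs) in control Fib-1, a ratio of 2.11 (1.53 to 2.92). Endothelial cells thus had the highest Ier2 level and the largest Ier2 ratio of the 7 classes. The level was 95.6 CPM (108 UMIs) in diabetic Mac, against 53.5 CPM (140 UMIs) in control Mac, a ratio of 1.79 (1.38 to 2.31). It was 252 CPM (534 UMIs) in diabetic Fib-2, against 143 CPM (520 UMIs) in control Fib-2, a ratio of 1.77 (1.56 to 2.0). In the main smooth muscle class it was 187 CPM (1069 UMIs) in diabetic VSMCs-2, against 114 CPM (317 UMIs) in control VSMCs-2, a ratio of 1.64 (1.45 to 1.87). Fib-3 and VSMCs-1 had ratios of 1.23 (0.837 to 1.79) and 1.19 (0.691 to 2.1), whose intervals include 1. The Mac call ended when cells were thinned to 1000 UMIs.

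The gain in Ier2 was also seen as more cells with a transcript. After each cell was thinned to 1000 UMIs, a UMI of Ier2 was seen in 25.9% of diabetic ECs (20.3 to 32.2%), against 11.1% of control ECs (7.96 to 14.9%). Before thinning it was seen in 53.1% of diabetic and 31.7% of control ECs, at median depths of 3504 and 2867 UMIs, and 8 diabetic and 23 control cells under 1000 UMIs were left out. In VSMCs-2 the thinned share was 17.2% of diabetic VSMCs-2 (14.7 to 19.9%), against 10.9% of control VSMCs-2 (8.29 to 14%). VSMCs-1 had the lowest Ier2 share of the 7 classes, with 5.79% of diabetic VSMCs-1 (2.36 to 11.6%), against 3.67% of control VSMCs-1 (1.01 to 9.13%). No class here is known to lack Ier2, so these shares have no background class to be set against.

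Ier5, a regulator of heat shock factor and of PP2A phosphatases, was called higher in 3 classes. In fibroblasts it had 104 CPM (221 UMIs) in diabetic Fib-2, against 54.7 CPM (199 UMIs) in control Fib-2, a ratio of 1.91 (1.57 to 2.32). In macrophages it had 109.8 CPM (124 UMIs) in diabetic Mac, against 59.6 CPM (156 UMIs) in control Mac, a ratio of 1.84 (1.44 to 2.35). ECs gave a smaller count, with 51.5 CPM (44 UMIs) in diabetic ECs, against 31.1 CPM (34 UMIs) in control ECs and a ratio of 1.66 (1.03 to 2.67), and that call ended under thinning, a minimum of 100 UMIs or removal of the deepest 5% of cells. Its relative Ier5l was tested in VSMCs-2 alone, with a ratio of 1.27 (0.743 to 2.24), and had 0 to 17 UMIs per library in the other classes.

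Ier3, which prolongs ERK signalling and protects cells from death, was the only member called in both directions. ECs had 858 CPM (733 UMIs) in diabetic ECs, against 448 CPM (490 UMIs) in control ECs, a ratio of 1.91 (1.71 to 2.15). Macrophages had 223 CPM (252 UMIs) in diabetic Mac, against 338 CPM (883 UMIs) in control Mac, a ratio of 0.661 (0.572 to 0.761). Fib-1 had 129 CPM (43 UMIs) in diabetic Fib-1, against 205 CPM (107 UMIs) in control Fib-1, a ratio of 0.631 (0.432 to 0.907). Ier3 was thus higher in diabetic endothelium and lower in diabetic macrophages and Fib-1, and its ratio in VSMCs-2 was 1.01 (0.921 to 1.1). After thinning, a UMI of Ier3 was seen in 37.3% of diabetic ECs (30.9 to 44%), against 25.4% of control ECs (20.8 to 30.3%), and in 18.6% of diabetic Mac (13.4 to 24.7%), against 24.9% of control Mac (21.2 to 29%). Both lower calls missed the size rule, with ratios still below 1, when mitochondrial, ribosomal protein and haemoglobin genes were left out of the scaling or each cell had equal weight, and so did the Mac call under thinning and the Fib-1 call in cells with at most 5% mitochondrial UMIs. The diabetic Fib-1 cells held 4.61% haemoglobin UMIs, against 0.252% in control Fib-1. The higher calls of Fib-1 were all kept in the scaling without these genes. Any part of this difference in the other Fib-1 ratios beyond the scaling was not tested.

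**Figure D3:**
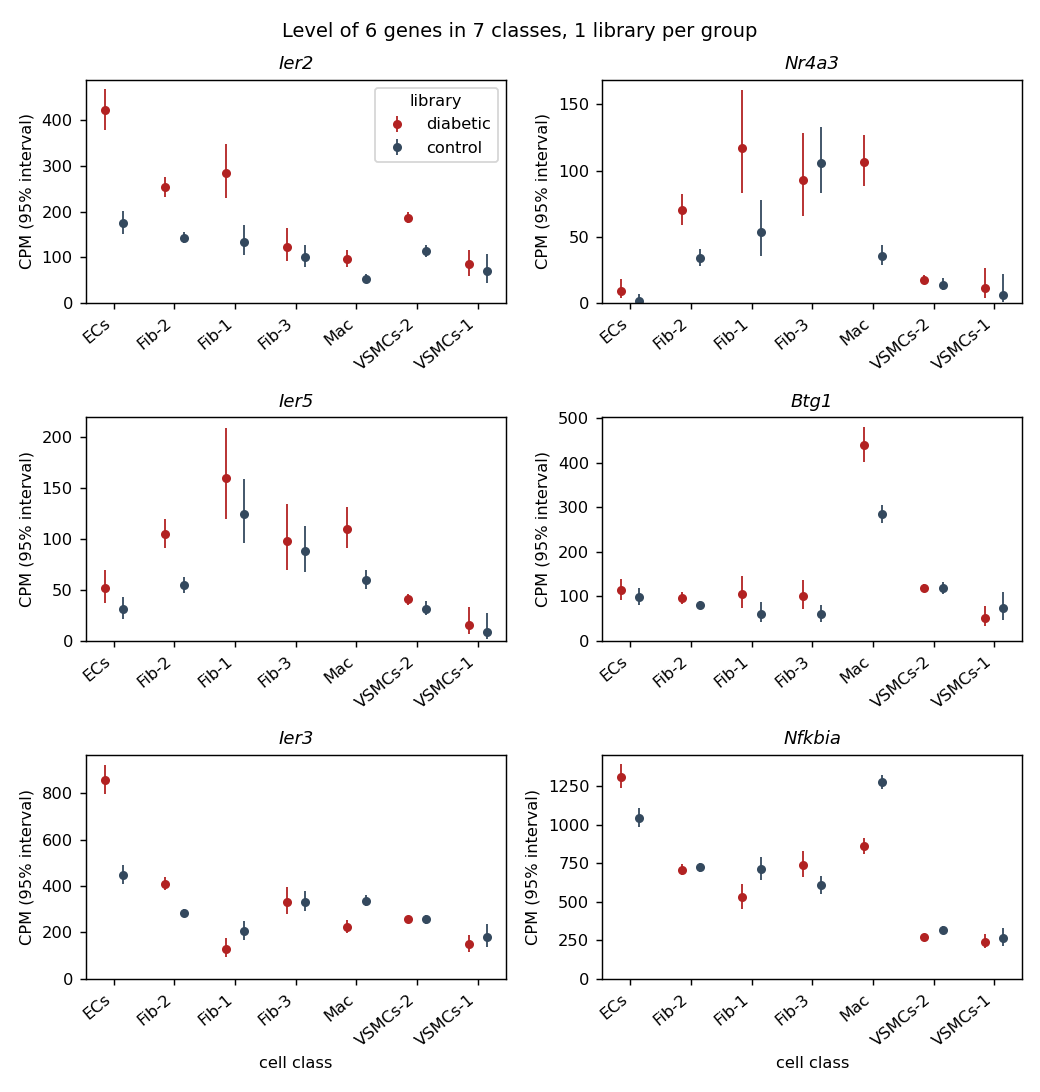
Level in CPM with exact Poisson 95% intervals of Ier2, Nr4a3, Ier5, Btg1, Ier3 and Nfkbia in the 7 classes, with the diabetic library left of the control library in each class. The Ier2 point of the diabetic library lies above that of the control library in all 7 classes, with overlapping intervals in Fib-3 and VSMCs-1, while the Ier3 pairs in ECs (858 and 448 CPM) and Mac (223 and 338 CPM) run in opposite directions.

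Among the transcription factors, the nuclear receptor Nr4a3 had the largest called ratio of all 177 tested pairs. The NR4A receptors are orphan receptors that limit inflammatory gene expression in macrophages and vascular cells. Nr4a3 had 106 CPM (120 UMIs) in diabetic Mac, against 35.9 CPM (94 UMIs) in control Mac, a ratio of 2.96 (2.24 to 3.91). It had 70 CPM (148 UMIs) in diabetic Fib-2, against 34.1 CPM (124 UMIs) in control Fib-2, a ratio of 2.05 (1.61 to 2.63). In Fib-1 it had 117 CPM (39 UMIs) in diabetic Fib-1, against 53.7 CPM (28 UMIs) in control Fib-1, a ratio of 2.19 (1.31 to 3.69). The Nr4a3 window with 4 cores is printed above, and a link between the cores and these levels was not tested. Fib-3, which had the highest Nr4a3 level of the 7 classes in the control library, showed no such difference, with 93.2 CPM (37 UMIs) in diabetic Fib-3, against 106 CPM (76 UMIs) in control Fib-3. The Fib-1 call ended under thinning and at a minimum of 100 UMIs.

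A UMI of Nr4a3 was seen after thinning in 7.04% of diabetic Mac (3.9 to 11.5%), against 2.41% of control Mac (1.25 to 4.18%). In Fib-2 it was 6.19% of diabetic Fib-2 (4.3 to 8.59%), against 2.09% of control Fib-2 (1.27 to 3.25%). ECs had the lowest Nr4a3 level of the 7 classes in both libraries, with 8 diabetic and 2 control UMIs, and a UMI was seen after thinning in 0% of 220 diabetic and 0.292% of 343 control ECs. A single diabetic macrophage held 13.3% of that class's Nr4a3 UMIs.

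The other NR4A receptors differed less. Nr4a2 was called higher in Fib-2, with 159.8 CPM (338 UMIs) in diabetic Fib-2, against 92.1 CPM (335 UMIs) in control Fib-2 and a ratio of 1.73 (1.49 to 2.02), a call that ended under thinning. Nr4a1, the receptor with a role in resting monocytes, was called nowhere. Its ratios ran from 0.884 in Fib-1 to 1.48 in ECs, and the intervals of Fib-2 (1.29 to 1.5) and ECs (1.23 to 1.77) lay above 1.

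The EGR zinc finger factors, which switch on growth and coagulation genes in injured vessels, were called in no class. Egr1 was tested in all 7 with ratios from 0.886 in VSMCs-1 to 1.43 in ECs. In ECs it had 609 CPM (520 UMIs) in diabetic ECs, against 425 CPM (464 UMIs) in control ECs, with an interval of 1.26 to 1.63 that lay above 1. A UMI of Egr1 was seen after thinning in 32.3% of diabetic ECs (26.1 to 38.9%), against 19.5% of control ECs (15.5 to 24.1%). Egr1 thus differed in ECs by less than the size rule. Egr2 was tested in 3 classes with ratios from 0.986 in VSMCs-2 to 1.01 in Fib-2, and Egr3 in 3 classes from 0.946 in VSMCs-2 to 1.6 in ECs, all with intervals that include 1. In Fib-2 Egr3 had 16.5 CPM (35 UMIs) in diabetic Fib-2, against 10.5 CPM (38 UMIs) in control Fib-2, a ratio of 1.58 (0.971 to 2.57).

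Csrnp1, a nuclear protein induced by AXIN1, was called higher in ECs and Fib-2. It had 92.5 CPM (79 UMIs) in diabetic ECs, against 43.9 CPM (48 UMIs) in control ECs, a ratio of 2.11 (1.45 to 3.08). In Fib-2 it had 126 CPM (266 UMIs) in diabetic Fib-2, against 65.2 CPM (237 UMIs) in control Fib-2, a ratio of 1.93 (1.61 to 2.31). Its annotated span overlaps the macrophage gene Cx3cr1 on the same strand, so reads of these genes may be split between them, and the Csrnp1 values are uncertain where Cx3cr1 is expressed. In Mac the Csrnp1 ratio was 0.889 (0.717 to 1.1).

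Nfil3, a basic leucine zipper repressor of cytokine and clock genes, was called higher in Fib-2, with 24.6 CPM (52 UMIs) in diabetic Fib-2, against 13.2 CPM (48 UMIs) in control Fib-2 and a ratio of 1.86 (1.23 to 2.82). Myc, the growth factor-induced driver of ribosome production and division, was called higher in Fib-3 alone, with 131 CPM (52 UMIs) in diabetic Fib-3, against 82.2 CPM (59 UMIs) in control Fib-3 and a ratio of 1.59 (1.08 to 2.35). In Fib-1 Myc had 48.2 CPM (16 UMIs) in diabetic Fib-1, against 82.4 CPM (43 UMIs) in control Fib-1, a ratio of 0.584 (0.307 to 1.06) whose interval includes 1. Both calls ended under thinning.

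The phosphatases and kinase inhibitors of the ERK loop moved in few classes. Dusp1, a nuclear phosphatase of p38 and JNK that glucocorticoids also induce, was called higher in ECs, with 392 CPM (335 UMIs) in diabetic ECs, against 253 CPM (277 UMIs) in control ECs and a ratio of 1.55 (1.32 to 1.82). Without the 5% of cells with most UMIs its call ended, and its annotated span overlaps a pair of clone-named genes on the same strand, so its values are uncertain. Dusp5, a nuclear phosphatase of ERK, was called higher in macrophages, with 63.7 CPM (72 UMIs) in diabetic Mac, against 27.5 CPM (72 UMIs) in control Mac and a ratio of 2.32 (1.65 to 3.26). Outside Mac, Dusp5 was tested in Fib-2 (1.33 (0.747 to 2.34)) and VSMCs-2 (0.719 (0.412 to 1.28)). Dusp6, the cytoplasmic ERK phosphatase, was tested in 4 classes with ratios from 0.973 in Mac to 1.3 in Fib-2, all with intervals that include 1. Dusp2, a phosphatase of activated leukocytes, was tested in Mac alone, with a ratio of 1.41 (0.89 to 2.19). In ECs Dusp2 had 13 diabetic and 2 control UMIs, under the minimum.

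Errfi1, the inhibitor of the EGF receptor, was called higher in ECs on small counts, with 32.8 CPM (28 UMIs) in diabetic ECs, against 16.5 CPM (18 UMIs) in control ECs and a ratio of 1.99 (1.06 to 3.82). A single diabetic cell held 21.4% of those UMIs, and the call ended without the cell holding most UMIs, under thinning and at a minimum of 100 UMIs. Trib1, a pseudokinase that marks C/EBP factors for degradation, was called higher in 3 classes. It had 67.6 CPM (143 UMIs) in diabetic Fib-2, against 42.6 CPM (155 UMIs) in control Fib-2, a ratio of 1.59 (1.25 to 2.0). In Fib-1 and ECs the ratios were 1.87 (1.0 to 3.51) and 2.05 (1.03 to 4.2), from 75.3 CPM (25 UMIs) in diabetic Fib-1, against 40.3 CPM (21 UMIs) in control Fib-1, and 28.1 CPM (24 UMIs) in diabetic ECs, against 13.7 CPM (15 UMIs) in control ECs. All 3 calls ended under thinning, where the Fib-2 ratio was 1.24, the Fib-1 ratio 0.899 and the ECs ratio 0.780. The Fib-1 and ECs calls also ended at a minimum of 100 UMIs and without the deepest 5% of cells. The Fib-1 call ended too with equal cell weight, without the cell holding most UMIs and in cells with at most 5% mitochondrial UMIs.

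Of the genes of cytokine and NF-kappaB signalling, Socs3 and Nfkbiz were called and Nfkbia was not. Socs3, which blocks JAK kinases at gp130-type receptors after STAT3 activation, was called higher in 3 classes. In ECs it had 135 CPM (115 UMIs) in diabetic ECs, against 68.6 CPM (75 UMIs) in control ECs, a ratio of 1.96 (1.45 to 2.66). In smooth muscle it had 133 CPM (763 UMIs) in diabetic VSMCs-2, against 84.8 CPM (236 UMIs) in control VSMCs-2, a ratio of 1.57 (1.36 to 1.83). In Fib-3 it had 204 CPM (81 UMIs) in diabetic Fib-3, against 124 CPM (89 UMIs) in control Fib-3, a ratio of 1.64 (1.2 to 2.25), which ended under thinning. In Fib-2 the Socs3 ratio was 1.49 (1.32 to 1.69), an interval above 1 with a size just under the rule. Its STAT motif is in the window printed above, inside the annotated span of the gene.

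Nfkbiz (IkappaB-zeta), a nuclear cofactor that NF-kappaB induces and that then turns on secondary targets such as Il6, was called higher in ECs and Fib-3. It had 149 CPM (127 UMIs) in diabetic ECs, against 69.5 CPM (76 UMIs) in control ECs, a ratio of 2.14 (1.6 to 2.88). In Fib-3 it had 156 CPM (62 UMIs) in diabetic Fib-3, against 92 CPM (66 UMIs) in control Fib-3, a ratio of 1.7 (1.18 to 2.44). Both calls ended under thinning, with ratios of 1.46 in ECs and 1.59 in Fib-3 whose intervals include 1, and the Fib-3 call also without the deepest 5% of cells. Nfkbia (IkappaB-alpha), the cytoplasmic inhibitor, was called nowhere and its intervals pointed both ways. It had 1313 CPM (1121 UMIs) in diabetic ECs, against 1047 CPM (1144 UMIs) in control ECs, a ratio of 1.25 (1.15 to 1.36). In Mac it had 861 CPM (973 UMIs) in diabetic Mac, against 1278 CPM (3344 UMIs) in control Mac, a ratio of 0.674 (0.627 to 0.724), just short of the size rule for a lower call. Its intervals also lay below 1 in Fib-1 (0.616 to 0.889) and VSMCs-2 (0.784 to 0.926). Over all annotated cells the Nfkbia ratio was 0.698 (0.676 to 0.72), with Mac, its highest class in the control library, making up 229 of 2524 diabetic and 510 of 3060 control cells.

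Genes that destroy mRNAs or hold back division followed. Zfp36 (tristetraprolin), which binds AU-rich elements of cytokine mRNAs, was called in no class, with ratios from 0.985 in VSMCs-1 to 1.45 in Fib-2. Its paralogue Zfp36l1 was called higher in Fib-1, with 403 CPM (134 UMIs) in diabetic Fib-1, against 265 CPM (138 UMIs) in control Fib-1 and a ratio of 1.52 (1.19 to 1.95), and the call ended without the cell holding most of its UMIs. Btg1 was called higher in 3 classes. Macrophages had 439 CPM (496 UMIs) in diabetic Mac, against 284 CPM (743 UMIs) in control Mac, a ratio of 1.55 (1.38 to 1.73). The Mac call ended under trimmed mean scaling (1.42), under thinning (1.43) and in cells with at most 5% mitochondrial UMIs (1.42). Fib-1 had 105 CPM (35 UMIs) in diabetic Fib-1, against 61.4 CPM (32 UMIs) in control Fib-1, a ratio of 1.72 (1.03 to 2.86). Fib-3 had 101 CPM (40 UMIs) in diabetic Fib-3, against 59.9 CPM (43 UMIs) in control Fib-3, a ratio of 1.68 (1.07 to 2.65). The calls in Fib-1 and Fib-3 ended under 5 of the 10 alternatives besides the 2-fold rule.

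Btg2, a p53 and growth factor target that recruits deadenylases, was called nowhere. Its ratios ran from 0.835 in Fib-3 to 1.4 in Mac, and the intervals of 4 classes lay above 1. Tob1, of the same antiproliferative family, was called higher in ECs, with 69.1 CPM (59 UMIs) in diabetic ECs, against 43 CPM (47 UMIs) in control ECs and a ratio of 1.61 (1.08 to 2.41). The thinned Tob1 ratio in ECs was 0.821, below 1.

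The stress members were led by Gadd45b, an activator of p38 and JNK through MTK1. It was called higher in ECs, with 427 CPM (365 UMIs) in diabetic ECs, against 254 CPM (278 UMIs) in control ECs and a ratio of 1.68 (1.43 to 1.97). In Fib-2 its ratio was 1.46 (1.31 to 1.63) and in Mac 0.793 (0.682 to 0.919), so the intervals of these classes lay on opposite sides of 1. Gadd45g was called nowhere, with ratios from 0.739 in Fib-3 to 1.36 in VSMCs-1, the interval above 1 in 4 classes and below 1 in 3. Ppp1r15a (GADD34), the phosphatase subunit that restarts translation after stress, was called nowhere, with ratios from 0.704 in Mac to 1.38 in ECs. In ECs it had 758 CPM (647 UMIs) in diabetic ECs, against 548 CPM (599 UMIs) in control ECs. The interval of 1.24 to 1.55 in ECs was the only one above 1. The Ppp1r15a intervals of 2 classes lay below 1, among them VSMCs-2 at 0.909 (0.832 to 0.994). Rhob, an endosomal GTPase of the endothelial barrier, was called nowhere, with ratios from 0.826 in Mac to 1.48 in VSMCs-1.

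**Figure D4:**
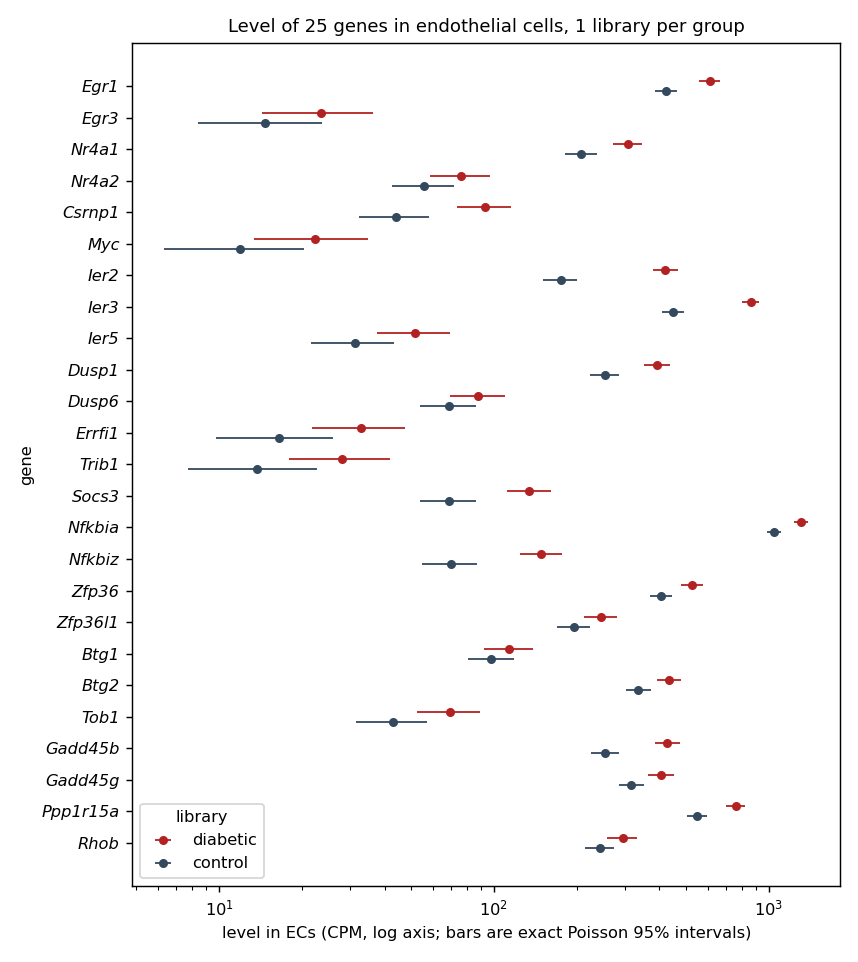
Level in CPM (log axis) with exact Poisson 95% intervals of the 25 members with at least 30 UMIs in ECs, in the diabetic and the control library. The diabetic value lies to the right of the control value for all 25 genes, from Btg1 (114 and 97.9 CPM) to Ier2 (420.4 and 175 CPM).

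Summed over all 31 genes, ECs had the largest ratio of the 7 classes. The sum was 7934 CPM in diabetic and 5414 CPM in control ECs, a ratio of 1.47 (1.42 to 1.52). It was 7365 CPM in diabetic and 5725 CPM in control Fib-2, a ratio of 1.29 (1.26 to 1.31). The ratio was 1.08 in Fib-1, 1.07 in Fib-3, 1.05 in VSMCs-2 and 1.06 in VSMCs-1, where the interval was 0.97 to 1.15. In macrophages the sum was 4462 CPM in diabetic and 4647 CPM in control Mac, a ratio of 0.96 (0.929 to 0.992). The direction in Mac flipped to 1.03 when mitochondrial, ribosomal protein and haemoglobin genes were left out of the scaling. The direction in VSMCs-1 flipped to 0.880 with equal weight for every cell and to 0.919 in cells with at most 5% mitochondrial UMIs.

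The endothelial difference ran through the whole range of cells rather than a few of them. The summed genes made up a median of 0.51% of a cell's UMIs in diabetic and 0.275% in control ECs. The 10th percentile over cells was 0.118% in diabetic and 0.0652% in control ECs, and the 90th percentile was 1.75% and 1.22%. In Fib-2 the medians were 0.686% in diabetic and 0.503% in control cells, and in VSMCs-2 0.407% and 0.406%. In macrophages the 10th percentile was 0.0739% in diabetic and 0.20% in control Mac, and the 90th percentile was 0.798% and 0.781%. Depth differed there too, as 30 of 229 diabetic and 13 of 510 control Mac held under 1000 UMIs. Among Mac thinned to 1000 UMIs the 10th percentile was 0.8 UMIs of the summed genes in diabetic and 1 in control cells, and the median 3 and 4. Among thinned ECs the 10th percentile was 1 UMI in diabetic and 0 in control cells, the median 5 and 3, and the 90th percentile 15.1 and 13. A thinned diabetic EC showed a median of 4 of the 31 genes and a thinned control EC 3. Cells of a library share their source, so these ranges describe the libraries.

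**Figure D5:**
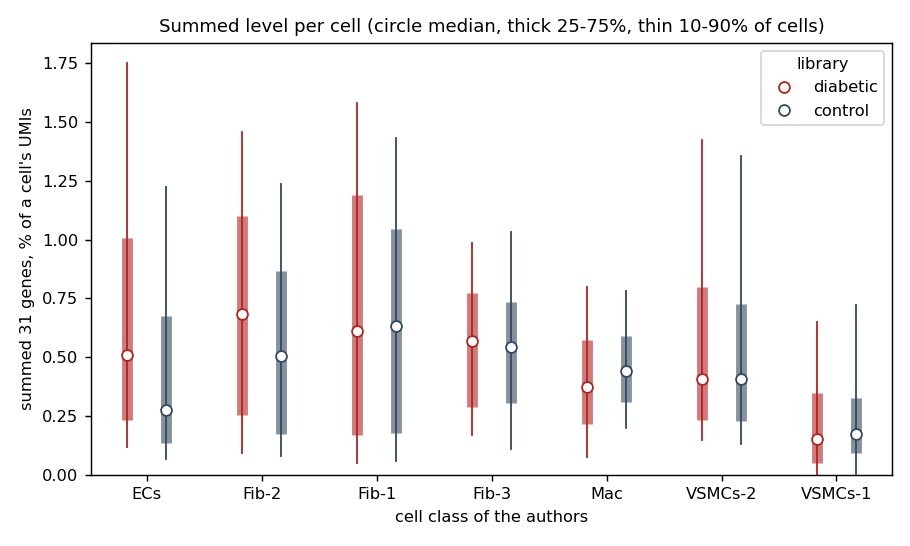
Summed 31 genes as a percentage of a cell's UMIs in the 7 classes, with the diabetic library left of the control library, circles for the median, thick bars for the middle 50% and thin bars for the middle 80% of cells. All 3 marks sit higher in diabetic than in control ECs, the medians being 0.51% and 0.275%.

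Cells that were high for these genes were also high for the Fos and Jun subunits, whose sum was not part of the member sum. Over cells thinned to 1000 UMIs, Spearman's rho between both sums was 0.783 over 220 diabetic and 0.714 over 343 control ECs. It was 0.787 in diabetic and 0.747 in control Fib-1, and 0.438 in diabetic and 0.271 in control Mac. Macrophages had the lowest rho of the 7 classes in both libraries, and Fib-3 was next, with 0.449 in diabetic and 0.352 in control cells. Between the member sum and the heat shock genes it was 0.24 in diabetic and 0.188 in control ECs. With the mitochondrial share it was -0.32 and -0.255, and with the cell's total UMIs 0.187 and 0.286. Cells of a class share a library and a digestion, so these values are descriptions and no test was made.

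Transcripts of other cell types and of red cells also differed between the libraries. In ECs the monocyte or neutrophil markers summed to 335 CPM in diabetic and 20.1 CPM in control ECs, with all 5 markers seen in the diabetic library and Csf3r at 0 in the control library. The adipocyte markers had 1866 CPM in diabetic and 1112 CPM in control ECs, with Adipoq and Plin1 at 0 in the control library. The smooth muscle markers had 710 CPM in diabetic and 586 CPM in control ECs. The pericyte markers had 21 UMIs in diabetic and 7 UMIs in control ECs. The dendritic or monocyte-derived markers were lower, with 107 CPM in diabetic and 264 CPM in control ECs. The macrophage markers had 174 CPM in diabetic and 276 CPM in control ECs, the fibroblast markers 531 CPM in diabetic and 642 CPM in control ECs, and the erythroid genes 7624 CPM in diabetic and 8013 CPM in control ECs. In Fib-2 the erythroid genes had 7993 CPM in diabetic and 139 CPM in control Fib-2, and the macrophage markers 45.9 CPM in diabetic and 208 CPM in control Fib-2, with Adgre1 at 0 in the diabetic library. The fibroblast markers, the class's own, had 25768 CPM in diabetic and 33189 CPM in control Fib-2, the smooth muscle markers 1187 and 812 CPM, and the pericyte markers 541 and 335 CPM, with Higd1b at 0 in both libraries. The part of these transcripts in the member ratios of ECs and Fib-2 was not tested. When haemoglobin, mitochondrial and ribosomal protein genes were left out of the scaling, the members called higher numbered 13 of 25 in ECs and 13 of 29 in Fib-2, where 5.69% and 7.13% of all tested genes were called higher. In Fib-3 the erythroid genes had 20472 CPM in diabetic and 113 CPM in control Fib-3, and in VSMCs-2 11577 CPM in diabetic and 116 CPM in control VSMCs-2. Every member call of both classes was kept in that scaling. VSMCs-2 also differed in other lists, such as the pericyte markers with 2124 CPM in diabetic and 1095 CPM in control VSMCs-2. The fibroblast markers had 544 CPM in diabetic and 1115 CPM in control VSMCs-2. Any part of these transcripts beyond the scaling was not tested in Fib-3 or VSMCs-2 either.

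The macrophage class itself differed in its markers, a difference that stands beside every Mac value above. Its 5 macrophage markers summed to 16908 CPM in diabetic and 26843 CPM in control Mac, and all 5 were seen in both libraries. The foam cell markers had 968 CPM in diabetic and 442 CPM in control Mac, the smooth muscle markers 682 CPM in diabetic and 250.4 CPM in control Mac, and the T cell markers 616 CPM in diabetic and 319.5 CPM in control Mac. All 5 markers of each of these lists were seen in both libraries. So were those of the monocyte or neutrophil list, with 5302 CPM in diabetic and 3709 CPM in control Mac. Other lists were lower, such as the dendritic or monocyte-derived markers with 5030 CPM in diabetic and 7096 CPM in control Mac. The B cell markers had 341 CPM in diabetic and 528 CPM in control Mac, and the NK cell markers 152 and 312 CPM, with Ncr1 at 0 in the diabetic library. The part of this in the higher Nr4a3, Dusp5, Ier5, Ier2 and Btg1 and the lower Ier3 of Mac was not tested.

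Early genes outside the 31 were read by the same rule. Of the AP-1 subunits 3 of 6 were called higher and none lower in ECs (all genes 4.18% and 4.02%). Their median log2 ratio there was 0.63, close to the 0.63 of the members. In VSMCs-1 it was 0.63 against -0.01 for the members, and in Fib-3 0.41 against 0.10. In VSMCs-1 2 of 5 subunits were called higher and none lower (3.23% and 4.82%). Both medians were 0.42 and 0.48 in Fib-2, 0.34 and 0.20 in Fib-1, 0.33 and 0.16 in Mac, and 0.20 and 0.08 in VSMCs-2. Junb was called higher in ECs at 2.06 (1.85 to 2.29), Fosb at 1.66 (1.5 to 1.85) and Fosl2 at 1.65 (1.08 to 2.55). Jund was called higher in VSMCs-2, at 1.92 (1.66 to 2.23). Of the Krueppel-like, ATF and MAF early genes 1 of 12 was called higher and none lower in ECs (all genes 4.18% and 4.02%). In Fib-2 3 of 13 were called higher and none lower (all genes 5.43% and 3.62%). The small MAF factor Maff, a partner of stress-responsive leucine zippers, was called higher in ECs at 5.12 (2.04 to 15.3) from 24 diabetic and 6 control UMIs, in Fib-2 at 1.87 (1.39 to 2.51) and in Fib-3 at 1.93 (1.13 to 3.28). Klf4, a factor of vascular quiescence and smooth muscle plasticity, was called higher in Fib-2 at 1.53 (1.42 to 1.64) and VSMCs-1 at 1.94 (1.22 to 3.18). Bhlhe40, a clock repressor, was called higher in Mac at 1.92 (1.45 to 2.53), and Klf10 lower in Fib-3 at 0.476 (0.211 to 0.973).

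Family relatives of the members, such as other dual specificity phosphatases and SOCS proteins, were called in both directions. In Fib-2 5 of 21 were called higher and 1 lower (all genes 5.43% and 3.62%). In Mac 2 of 15 were called higher and 2 lower (8.79% and 5.66%). In ECs none of 11 was called higher and 1 lower (4.18% and 4.02%). Socs1, the interferon-induced relative of Socs3, was called higher in Fib-2 at 2.04 (1.33 to 3.13) and VSMCs-2 at 1.83 (1.1 to 3.16). Trib3, a relative of Trib1 induced by the integrated stress response, was called higher in Fib-2 at 2.29 (1.39 to 3.81) and lower in ECs at 0.549 (0.297 to 0.974). Rhoc, a relative of Rhob, was called lower in Mac at 0.61 (0.495 to 0.747) and Fib-1 at 0.568 (0.424 to 0.753). Dusp8, a phosphatase of JNK, was called higher in Fib-2 at 2.29 (1.26 to 4.25).

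Targets downstream of the same pathways were mixed. Of the ERK feedback and serum response genes 1 of 5 was called higher and none lower in ECs (all genes 4.18% and 4.02%). In Mac 1 of 10 was called higher, a share near that of all genes (8.79%), and 2 lower (all genes 5.66%). Hbegf, a growth factor of the EGF family, showed the pattern of Ier3 in ECs and Mac, with 262 CPM (224 UMIs) in diabetic ECs, against 146 CPM (160 UMIs) in control ECs, and 61.1 CPM (69 UMIs) in diabetic Mac, against 106 CPM (278 UMIs) in control Mac. Its ratios were 1.79 (1.46 to 2.21) in ECs, 2.09 (1.09 to 4.09) in Fib-1 and 0.575 (0.435 to 0.751) in Mac. Srf, the serum response factor, was called higher in Fib-2 at 1.72 (1.0 to 2.95) and Mac at 2.45 (1.19 to 5.06). Plaur, the urokinase receptor, was called lower in Mac at 0.558 (0.452 to 0.685) and Fib-3 at 0.527 (0.333 to 0.81), and Cyr61, a matricellular target of YAP and serum response factor, lower in Fib-3 at 0.612 (0.531 to 0.705).

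NF-kappaB early targets, cytokines and chemokines among them, split by class. In Fib-2 3 of 8 were called higher and none lower (all genes 5.43% and 3.62%). In Fib-1 3 of 7 were called higher and none lower (3.45% and 5.26%). In Mac 3 of 10 were called higher and 3 lower (8.79% and 5.66%). In VSMCs-2 1 of 7 was called higher and 5 lower (4.77% and 3.9%). The cytokine Il6, which Nfkbiz is known to promote, had ratios of 1.74 (1.57 to 1.93) in Fib-2, 1.63 (1.18 to 2.24) in Fib-1, 2.32 (1.24 to 4.32) in Mac and 0.587 (0.349 to 0.996) in VSMCs-2. The chemokine Ccl7 was called higher in all 3 fibroblast classes, at 1.78 (1.54 to 2.06) in Fib-2, and lower in VSMCs-2 at 0.149 (0.0878 to 0.243) and ECs at 0.384 (0.16 to 0.83). Ccl2, the monocyte attractant, was called higher in Fib-1 at 2.22 (1.42 to 3.51) and lower in Mac at 0.649 (0.612 to 0.688) and VSMCs-2 at 0.329 (0.185 to 0.575). Cxcl2, the neutrophil attractant, was called higher in Fib-3 at 6.17 (3.54 to 11.3) and lower in Mac at 0.634 (0.599 to 0.67) and VSMCs-2 at 0.358 (0.205 to 0.618).

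Heat shock genes, also induced by dissociation, were called lower mainly in smooth muscle. In ECs 1 of 12 was called higher and none lower (all genes 4.18% and 4.02%), their median log2 ratio being -0.25. In VSMCs-1 none of 11 was called higher and 7 lower (3.23% and 4.82%), with a median of -0.67. The inducible chaperone Hspa1b was called higher in ECs at 1.9 (1.16 to 3.15), in Mac and in Fib-2. Its cochaperone Dnajb1 was called higher in all 3 fibroblast classes and lower in VSMCs-1, at 2.05 (1.65 to 2.54) in Fib-3 and 0.512 (0.275 to 0.937) in VSMCs-1. The constitutive chaperones Hspa8 and Hspd1 were each called lower in VSMCs-2, VSMCs-1 and Fib-1. Of the glucocorticoid targets, Tsc22d3 (GILZ) was called lower in 4 classes, with ratios of 0.356 (0.294 to 0.429) in ECs, 0.369 (0.272 to 0.492) in Fib-1, 0.382 (0.339 to 0.43) in Fib-2 and 0.608 (0.473 to 0.783) in VSMCs-2. Zbtb16 was called lower in VSMCs-2 and Fib-3, and Cdkn1a, a p53 target that halts the cell cycle, higher in ECs and VSMCs-1. Errfi1 stands in both the member list and this one. Dusp1, also glucocorticoid-induced, was called higher in ECs. Of the glucocorticoid targets there, 2 of 8 were called higher and 1 lower (all genes 4.18% and 4.02%). Any part of glucocorticoids in these calls was not tested.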

How the data were processed

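Aortic cells were profiled with 10x Genomics 3' v2 chemistry in 1 library of 4 pooled mice per group, per the labels' protocols. The values the authors deposited are UMI counts for each gene in each barcode, not normalized. Cell Ranger 3.1.0, Partek and the mm10 build are named in the submitters' processing notes. The annotation release and the barcode filter are not given in the sources used here. Cell classes are the authors' deposited annotation. The 934 diabetic and 1155 control barcodes without a class, 2 diabetic ones with a blank class among them, were left out of the comparisons. Unused columns with values of a sample numbered 0.

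For each library and class, UMIs were added up and scaled to CPM. CPM values have exact Poisson 95% intervals, ratios exact conditional binomial ones and shares exact Clopper-Pearson ones, which cover counting error only. Classes needed at least 50 cells per library. For shares of cells with a UMI, every cell was thinned to 1000 UMIs (seed 1). Doublets were not removed and no caller was run, and an alternative left out the 5% of cells with most UMIs in each class and library. Further alternatives were TMM scaling (edgeR 4.0.16), scaling without mitochondrial, ribosomal protein and haemoglobin genes, equal weight for every cell, the thinned cells, minimums of 10 and 100 UMIs, a 2-fold size rule, leaving out the cell with most UMIs of a gene, and cells with at most 5% mitochondrial UMIs. Coverage of the ratio intervals was tested on counts simulated with the counting error that the intervals assume. The simulation had no variation between cells or mice, so it cannot show how the intervals hold for these data.

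All 31 members are accounted for, with counts, levels and ratios in each class where they were called and otherwise by the range of the ratio. In each related list up to 4 genes called in most classes were named, ties going to the ratio farthest from 1, and promoter windows were printed for at most 6 members called higher in most classes. The members, the related lists and the tests were chosen with earlier results of these data known. Promoters come from RefSeq (GRCm38.p6), and gene overlaps from a GRCm38 annotation. Whether counting used strand is not given in the sources used here, and Csrnp1, Dusp1, Dusp5, Errfi1, Ppp1r15a, Zfp36 and Zfp36l1 overlap genes on the opposite strand, so their values are uncertain to that extent. Analyses used Python with numpy 2.4.6, scipy 1.17.1 and pandas 2.3.3, and R 4.3.3.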

Additional observations from a re-analysis of the deposited data

Results flagged for a closer look

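Ier3 was flagged because its ratio of diabetic over control ran in opposite directions in different classes. ECs had a ratio of 1.91, whereas Mac had 0.661 and Fib-1 had 0.631, all called by the size rule. The difference between the classes was not tested, since each group is 1 library, and the intervals behind these ratios cover counting error only.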

How the results depend on the processing

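Of 36 called pairs of member and class, 6 kept their call under all 10 alternatives and 15 under all but the 2-fold size rule. The 6 were Ier2 in ECs and Fib-1, Csrnp1 in ECs, Dusp5 in Mac, and Nr4a3 in Mac and Fib-2. The call was kept by 35 pairs under TMM scaling, 36 at a minimum of 10 UMIs, 34 without mitochondrial, ribosomal protein and haemoglobin genes in the scaling, 32 in cells with at most 5% mitochondrial UMIs, 31 with equal cell weight, 31 without the top cell of each gene, 30 without the deepest 5% of cells, 29 at 100 UMIs, 18 under thinning and 9 at 2-fold. Thinning leaves fewer UMIs and turned Trib1 to 0.899 in Fib-1 and 0.780 in ECs and Tob1 to 0.821 in ECs, with intervals that include 1.

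The share of all genes called was computed for the scaling without mitochondrial, ribosomal protein and haemoglobin genes, given above, and for the minimums of UMIs. Under the other settings a change in the members cannot be told from a change over all genes. The number of members called higher was 11 in ECs and became 4 at 2-fold. In Fib-2 it was 7 and became 13 without mitochondrial, ribosomal protein and haemoglobin genes in the scaling, 11 without the deepest 5% of cells and 1 at 2-fold. In Fib-1 it was 5 and became 3 with equal cell weight or at most 5% mitochondrial UMIs. It became 2 under thinning, at 100 UMIs (all genes 3.52%), at 2-fold or without the top cell. In Fib-3 it was 4 and became 2 without the deepest 5% of cells and 0 under thinning or at 2-fold. At 2-fold it became 2 in Mac, from 5, and 0 in VSMCs-2, from 2. In VSMCs-1 it became 1 without the deepest 5% of cells, from 0. The number called lower in Mac was 1 and became 3 under TMM scaling, 2 with equal cell weight, under thinning or without the top cell, and 0 at 2-fold or in the scaling without mitochondrial, ribosomal protein and haemoglobin genes. In Fib-1 it was 1 and became 2 without the top cell and 0 with that scaling, equal cell weight, 2-fold or at most 5% mitochondrial UMIs. The summed ratio in ECs became 1.53 with that scaling and 1.56 with equal cell weight, past the size rule. It reversed to 1.03 in Mac with that scaling, and in VSMCs-1 to 0.880 with equal cell weight and 0.919 at 5% mitochondrial UMIs. Except where a setting leaves fewer UMIs, cells or passing sizes, the cause was not tested.

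With 1 pool of mice per group, differences between pools, digestions or sorts cannot be told apart from the effect of diabetes. Depth limits the smaller classes most, and the called pairs with fewest UMIs had 39 over both libraries. No paired analysis was possible because each group has 1 library and the ratios come from no test across samples.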

Other observations

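The 31 genes were also counted in barcodes without a class. They summed to 1606 CPM over 934 diabetic barcodes and 4447 CPM over 1155 control barcodes, a ratio of 0.361 (0.352 to 0.371). These barcodes are not a group of the study and no comparison rests on them.

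The smaller classes had too few cells for the comparison. T cells had 1735 CPM of the summed genes in 60 diabetic cells (337 UMIs) and 916 CPM in 13 control cells (44 UMIs), the lowest levels of the 13 classes in either library. Mono had 2903 CPM in 19 diabetic and 1965 CPM in 9 control cells, and Foam cells 3345 CPM in 17 diabetic and 2773 CPM in 35 control cells. B Cells had 2702 CPM in 30 diabetic and 3833 CPM in 28 control cells.

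Single members followed the rest of the list in single cells to different degrees. Over cells thinned to 1000 UMIs, Spearman's rho of Egr1 with the other members was 0.682 in 153 diabetic and 0.57 in 275 control Fib-1. In Mac the rho of Nfkbia with the others was 0.288 in 199 diabetic and 0.191 in 497 control cells. Cells of a class share a library, so these are descriptions.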
